A study of Mus musculus with 11 samples.

Results

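The proteasome genes of mouse T cell acute lymphoblastic leukaemia (T-ALL) were compared between tumours with and without the histone demethylase Utx. The genes were taken as all rows of the deposited count table whose symbol starts with Psma to Psmg followed by a digit. That rule gave 53 of 37224 rows. Of these, 48 are proteasome genes proper, 4 are pseudogenes (Psmb5-ps, Psmb6-ps, Psmb7-ps2 and Psme2b-ps), and 1, Psmc3ip, encodes a meiotic recombination factor that only shares the start of its name. Each of the 48 reached 20 counts over both pools, and 47 reached 100, the exception being Psmb11.

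The labels list 5 samples from Utx knockout donors (Utx-/Y) and 6 from Utx wild-type donors (Utx+/+ or Utx+/Y), all of C57/BL6 background. Progenitors bearing cKit were transduced in culture with a retrovirus for Notch1-IC, the active intracellular part of Notch1, and were grown as leukaemia after intravenous transfer into mice; both genotypes carry Notch1-IC. The knockout samples were 2 from bone marrow and 3 from spleen, and the wild-type samples 2 from bone marrow and 4 from spleen, with 3 of the 11 samples being repeat runs. Every knockout genotype is male and the wild-type genotypes include female ones, so genotype and sex cannot be told apart. The table holds 1 summed count per gene and genotype, called the knockout pool and the wild-type pool here. No spread between tumours can be computed, so every difference below lacks a check by replicates.

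The proteasome is the main protease for proteins that cells mark with ubiquitin chains. Its barrel-shaped 20S core consists of outer rings of alpha subunits and inner rings of beta subunits, of which Psmb5, Psmb6 and Psmb7 hold the standard active sites. In lymphoid cells and after interferon-gamma, the immune forms Psmb8, Psmb9 and Psmb10 take their places and change which peptides are made for display on MHC class I. The 19S particle caps the core, binds ubiquitin, removes it and unfolds the substrate with a ring of ATPases. Other caps, such as PA28 and PA200, open the core without ubiquitin.

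The pools held 106445530 counts (knockout) and 108015222 counts (wild-type). Values are given as raw counts, as counts scaled to the pool's total (CPM), and as log2 ratios, knockout divided by wild-type, after adding a pseudocount of 0.5. Bracketed ranges are exact 95% Clopper-Pearson intervals, which cover counting error only. A gene was called lower or higher when both pools together held at least 100 counts, with a change of at least 2-fold and an interval without 0; a 1.5-fold minimum (0.585 on the log2 scale) was read beside it. Kdm6a, the gene of Utx, had 1115 counts in knockout against 6299 in wild-type (-2.48, -2.57 to -2.38). Uty, its counterpart on the Y chromosome, had 1661 counts in knockout against 197 in wild-type (3.09, 2.88 to 3.32). The make-up of the pools by sex was not tested. The T cell list, with Cd3e at 436 against 446 CPM and Lck at 485 against 635 CPM, was measured in both pools (12 of 12 genes). Summed markers of other cells differed too: erythroid genes stood at 25895 CPM in the knockout and 12977 CPM in the wild-type pool, myeloid genes at 2324 against 1824 CPM, and T cell genes at 3766 against 4543 CPM. NK cell genes summed to 231 against 245 CPM, nearly all of it Gzma (193 against 236 CPM). By 2-fold, 5 of the 8 were called higher and 0 lower, against 11.2% and 5.36% of all genes tested. In pooled tissue, fewer cells of a type and less RNA per cell cannot be told apart.

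Most proteasome genes stood slightly lower in the knockout pool, 39 of 48 with scaling to totals and 30 to 39 with the other scalings tried, and the immune subunits stood lowest among the main particles. The median log2 ratio of the 48 genes was -0.17, against -0.07 over all 13833 genes with at least 100 counts and -0.14 over the 4540 of them with a mean between 31.6 and 308 CPM, the range of the core genes. The sum over the 48 genes was 6058 CPM for knockout and 6930 CPM for wild-type. With the 2-fold minimum 1 of the 47 genes with enough counts was called lower, Psma8, and 0 were called higher; among all genes tested 5.36% were called lower and 11.2% higher. With the 1.5-fold minimum 5 were lower (Psma8, Psmb8, Psmb9, Psmg3 and Psmg4) and 0 higher, where 14.7% and 18.9% of all genes passed. The counts of genes called lower were not above the background, and the 0 genes called higher were under it. Without any fold minimum, 37 of the 47 genes had an interval wholly below 0, 4 wholly above and 6 across it, against 46.7% of all genes below and 37.0% above. Of the 4540 genes of like level, 2756 were wholly below 0 and 1374 wholly above. The authors' deposited table, whose test carries no spread between tumours, gave an adjusted p under 0.05 to 43 of the 52 matched rows that it tested. The share of all genes under that limit was not counted, so the 43 rows are not read as a result about proteasome genes. By the exact intervals, only 2248 of the 13833 genes tested held 0.

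**Figure D1:**
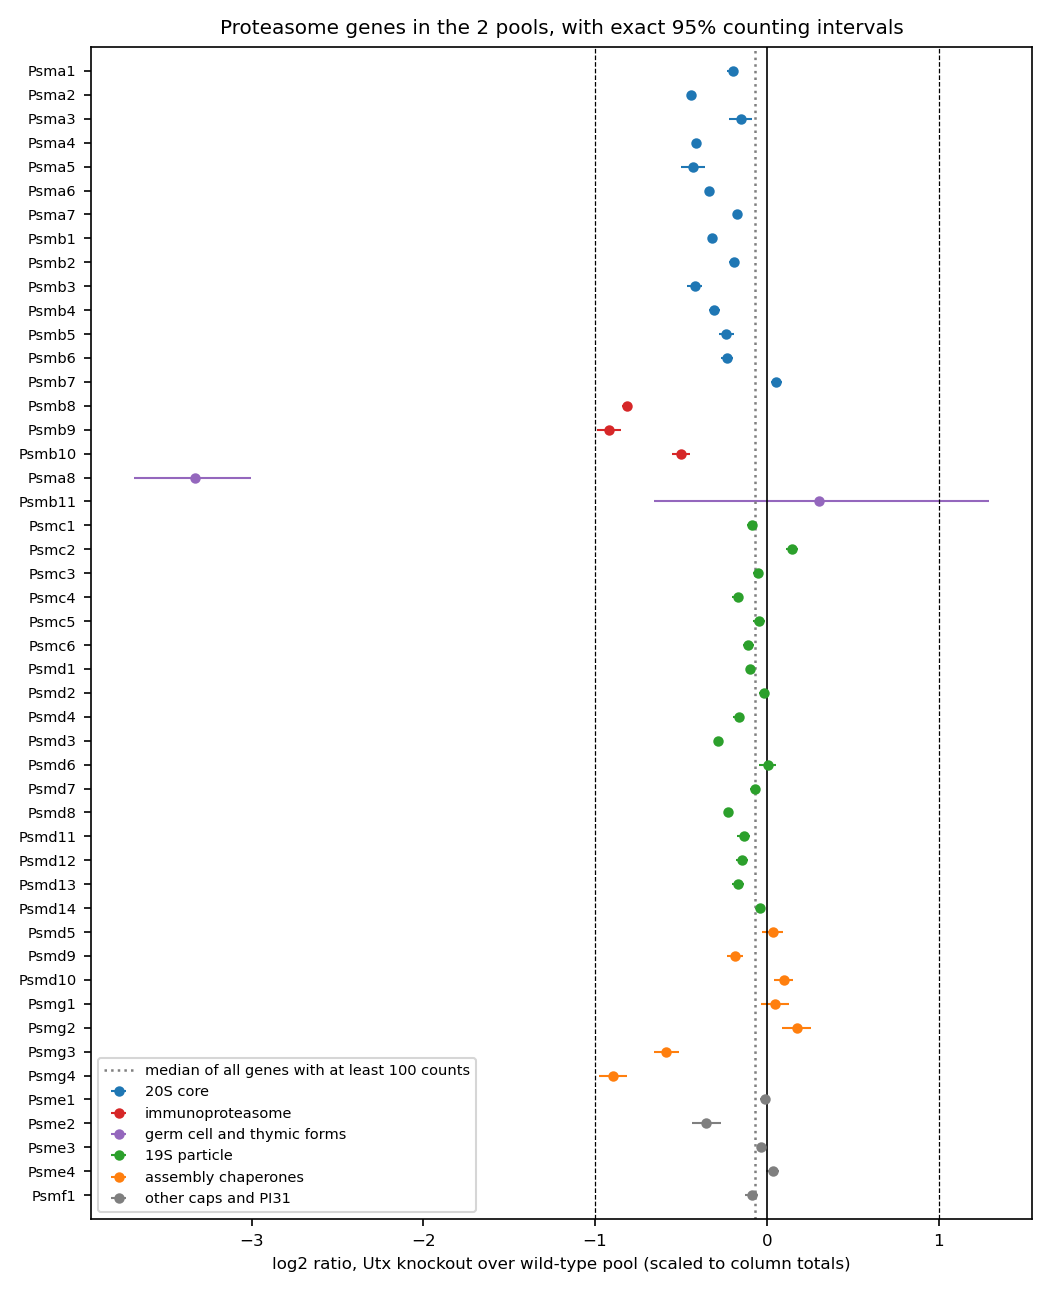
Log2 ratio of the knockout over the wild-type pool (x axis) for each of the 48 proteasome genes (y axis), coloured by particle; points are ratios and bars exact 95% counting intervals. The 20S core points lie between -0.44 and 0.055, the immune subunits between -0.92 and -0.50, and Psma8 lies alone at -3.33.

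The subunits of the alpha ring, which gates entry to the core, were all lower in the knockout pool, by modest amounts. All 7 had an interval wholly below 0, against 46.7% of all genes tested, and their median log2 ratio was -0.34. Psma2 had 27792 against 38356 counts, or 261 against 355 CPM (-0.44, -0.47 to -0.42). Psma5 followed at 26.9 against 36.3 CPM (-0.43, -0.50 to -0.36) and Psma4 at 231 against 308 CPM (-0.41, -0.44 to -0.39). Psma6 stood at 195 against 246 CPM, a log2 ratio of -0.34. The smallest differences of the ring belonged to Psma1 (146 against 168 CPM, -0.20), Psma7 (226 against 255 CPM, -0.17) and Psma3 (32.9 against 36.6 CPM, -0.15). The knockout pool thus held between 73.5% (Psma2) and 90.0% (Psma3) of the wild-type level of each gene. None reached the 1.5-fold minimum.

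The beta subunits without an active site behaved alike. Psmb3 stood at 70.5 against 94.2 CPM (-0.42, -0.46 to -0.38). Psmb1 was at 236 against 295 CPM (-0.32), Psmb4 at 130 against 161 CPM (-0.31) and Psmb2 at 177 against 201 CPM (-0.19). All 4 intervals lay below 0, against 46.7% of all genes tested, and the median was -0.31.

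The standard active site subunits did not all share this direction. Psmb5, the chymotrypsin-like subunit, had 7858 counts in the knockout pool against 9395, a log2 ratio of -0.24 (-0.28 to -0.19). Mir686 shares 109 exonic bases with Psmb5 on the same strand, at 1273 against 1236 counts. Gm3375 matches Psmb5 at 98.9% identity over 796 bases. The part of either in the Psmb5 count, which also enters the Psmb8 pair below, was not tested. Psmb6, the caspase-like subunit, had 13113 against 15631 counts, also lower at -0.23 (-0.27 to -0.20). Psmb7, the trypsin-like subunit, had 15180 against 14828 counts, or 143 against 137 CPM, and was the one core gene of 14 above 0 (0.055, 0.022 to 0.088). Nek6 shares 405 exonic bases with it on the other strand, at 172 against 165 counts. The direction of Psmb7 was the same under every scaling tried. Over the 14 core genes the median was -0.27, against -0.14 for the 4540 genes of like level. The summed core RNA was 2072 against 2524 CPM, and 13 of 14 core genes stayed below 0 under each scaling tried.

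The 3 immune subunits had lower ratios than each of the 14 standard core genes, although the interval of Psmb10 overlapped those of Psma2, Psma5 and Psmb3. Psmb8 (chromosome 17, 34197721 to 34201454, plus strand, in GENCODE M21 on GRCm38), the immune form of the chymotrypsin-like subunit, had 14695 against 26260 counts. In CPM this was 138 against 243 (-0.82, -0.85 to -0.79), which is 56.8% of wild-type. Psmb9 (chromosome 17, 34181987 to 34187764, minus strand), which replaces Psmb6, had 2492 against 4784 counts, or 23.4 against 44.3 CPM (-0.92, -0.99 to -0.85). Psmb10 (chromosome 8, 105935735 to 105938444, minus strand), which replaces Psmb7, had 4987 against 7157 counts, or 46.9 against 66.3 CPM (-0.50, -0.55 to -0.45). Psmb8 and Psmb9 passed the 1.5-fold minimum and Psmb10 did not. Among the 13833 genes tested, 8.07% lay below Psmb8, 6.42% below Psmb9 and 18.4% below Psmb10.

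The promoters of these immune genes and of 2 of their standard counterparts are shown so that the regions upstream of genes with unlike ratios can be read side by side. Each line gives the 250 bases before the RefSeq start (GRCm38.p6), 5′ to 3′ along the gene. Capitals mark matches, on either strand, to 3 motifs: TGACNNNGC, the antioxidant response element bound by the proteasome regulator Nfe2l1; the interferon-stimulated response element (ISRE), searched by its usual consensus; and TTCNNNGAA, the gamma-activated site of interferon-gamma target genes.
Psmb8 (chr17:34197945-34198194, plus strand): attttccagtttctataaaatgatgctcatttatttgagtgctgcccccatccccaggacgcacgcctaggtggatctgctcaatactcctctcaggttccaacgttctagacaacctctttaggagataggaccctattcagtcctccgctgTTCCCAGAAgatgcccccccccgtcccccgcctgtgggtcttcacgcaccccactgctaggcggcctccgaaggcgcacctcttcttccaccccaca
Psmb9 (chr17:34187331-34187580, minus strand): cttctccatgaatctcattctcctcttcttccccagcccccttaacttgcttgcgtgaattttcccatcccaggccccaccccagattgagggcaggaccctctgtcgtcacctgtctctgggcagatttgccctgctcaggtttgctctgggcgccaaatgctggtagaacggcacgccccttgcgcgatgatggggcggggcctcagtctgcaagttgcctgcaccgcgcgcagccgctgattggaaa
Psmb10 (chr8:105938393-105938642, minus strand): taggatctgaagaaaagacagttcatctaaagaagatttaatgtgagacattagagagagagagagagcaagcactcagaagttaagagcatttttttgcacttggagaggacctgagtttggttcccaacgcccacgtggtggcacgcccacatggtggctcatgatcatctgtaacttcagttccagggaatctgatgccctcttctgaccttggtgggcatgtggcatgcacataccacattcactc
Psmb5 (chr14:54617996-54618245, minus strand): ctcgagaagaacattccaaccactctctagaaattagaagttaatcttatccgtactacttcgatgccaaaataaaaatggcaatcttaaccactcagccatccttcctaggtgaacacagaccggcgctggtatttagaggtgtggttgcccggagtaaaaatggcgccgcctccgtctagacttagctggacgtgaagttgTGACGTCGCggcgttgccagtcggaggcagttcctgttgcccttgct
Psmb6 (chr11:70525107-70525356, plus strand): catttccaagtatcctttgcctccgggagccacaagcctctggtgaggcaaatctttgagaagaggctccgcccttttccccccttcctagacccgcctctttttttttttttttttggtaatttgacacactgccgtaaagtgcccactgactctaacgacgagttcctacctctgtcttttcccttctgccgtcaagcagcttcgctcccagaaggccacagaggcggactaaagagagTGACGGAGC

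In these windows Psmb8 held a TTCNNNGAA match, TTCCCAGAA, from base -97 to -89 before its start, while Psmb5 held TGACGTCGC from -47 to -39 and Psmb6 TGACGGAGC from -9 to -1. No capitals stand in the Psmb9 and Psmb10 windows. Of the 48 proteasome genes 40 had a RefSeq window. TGACNNNGC occurred in 5 of these 40 (12.5%) against 10.2% of all 32851 windows, the ISRE in 3 (7.50%) against 2.98%, and TTCNNNGAA in 2 (5.00%) against 7.02%. The CCAAT box, searched as CCAAT, occurred in 14 of the 40 windows, close to the 33.8% of all windows. These were 6 of 11 core genes, 1 of 3 immune subunits, 4 of 14 genes of the 19S particle, 1 of 6 assembly chaperones, 1 of 5 other caps, and Psmb11. The motifs were searched on both strands and may overlap each other. GENCODE M21 places the outermost starts of Psmb8, Psmb9 and Psmb10 further upstream than RefSeq does, so these windows do not hold all annotated starts.

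Each immune subunit was also lower relative to the standard subunit that it replaces, a comparison that no scaling between the pools can move. The log2 ratio of Psmb8 lay 0.58 below that of Psmb5 (difference -0.58, exact conditional interval -0.63 to -0.53). The difference was -0.69 (-0.77 to -0.61) for Psmb9 against Psmb6 and -0.56 (-0.62 to -0.49) for Psmb10 against Psmb7. Levels per length (RPKM, CPM divided by the summed exon length in kilobases) gave the immune form as a share of each pair. Psmb8 made up 33.2% of its pair in knockout against 42.6% in wild-type, Psmb9 8.86% against 13.5%, and Psmb10 39.7% against 49.2%. Summed over the 6 subunits, the immune share was 28.3% in knockout against 36.5% in wild-type. The absolute shares depend on the length used: with the longest protein-coding transcript, the share of Psmb8 was 50.8% against 60.7% and that of Psmb10 22.5% against 29.9%. The summed share then was 27.7% against 37.0%, and the wild-type pool stayed above the knockout pool in every pair.

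**Figure D2:**
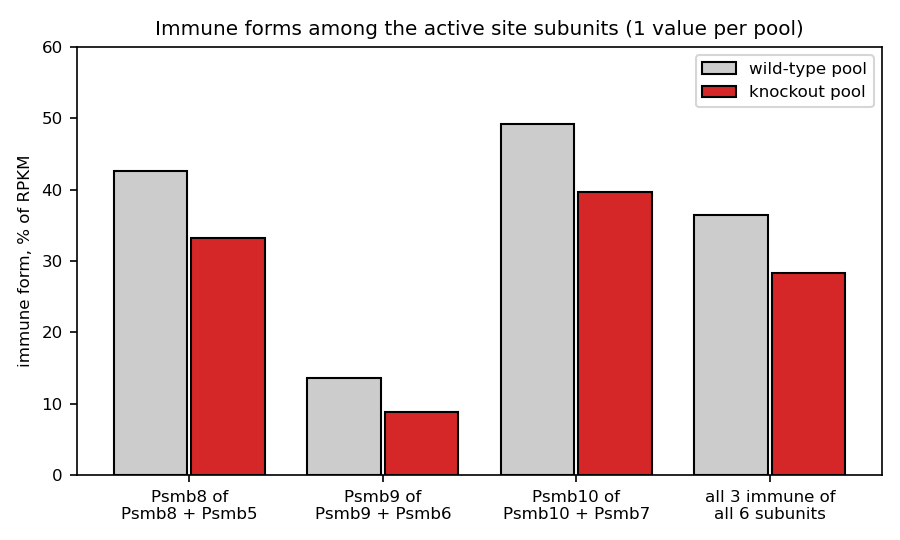
Immune form as a percentage of the RPKM of each immune and standard pair, and of all 6 active site subunits (y axis), for the wild-type pool (grey) and the knockout pool (red); each bar is 1 pooled value with no error bar. The knockout bar is the shorter one in each of the 4 groups, 28.3% against 36.5% for all 6 subunits.

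Psmb8 and Psmb9 lie in the MHC class II region beside the genes of the peptide transporter, Tap1 and Tap2, which carries proteasome products into the endoplasmic reticulum. These neighbours were lower as well. Tap2 had 8131 against 24803 counts, or 76.4 against 229.6 CPM (-1.59, -1.62 to -1.55), past the 2-fold minimum. Tap1 stood at 44.8 against 60.6 CPM (-0.44, -0.49 to -0.38). Further out, within 100 kb of Psmb8, H2-Ab1 (-0.68), H2-DMa (-0.57), Brd2 (-0.38) and H2-Aa (-0.13) were below 0, and the interval of H2-Ob (0.10) held 0. H2-DMb2 (0.70) and H2-DMb1 (0.52) were above 0 on few counts (140 against 87, and 112 against 79). Some reads here may be shared. Gm20496 overlaps 498 exonic bases of Psmb8 on the other strand and stood at 4400 against 7373 counts (-0.72). Tap1 overlaps 212 exonic bases of Psmb9 on the other strand. Whether counting used the strand was not given in the sources used here. Without strand, reads of such partners cannot be told apart. For Psmb10, on another chromosome, the search found no overlapping exons.

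**Figure D3:**
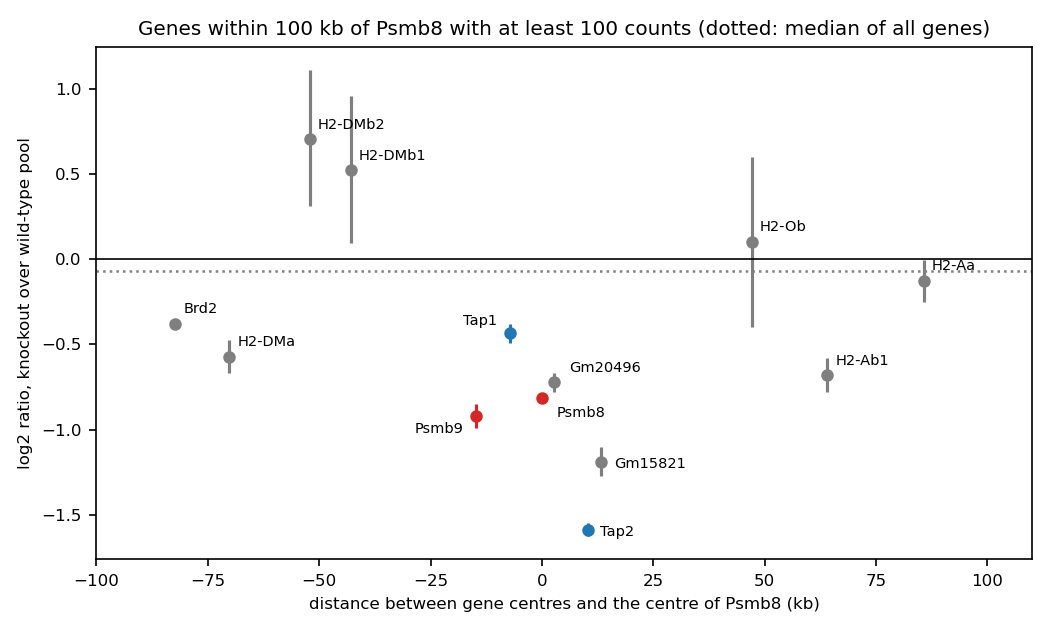
Log2 ratio of the knockout over the wild-type pool (y axis) against the distance of each gene's centre from that of Psmb8 in kb (x axis), for genes with at least 100 counts; bars are exact 95% counting intervals and the dotted line is the median of all genes. Tap2 at -1.59 is the lowest point, and Psmb9, Tap1, Psmb8, Gm20496, Tap2 and Gm15821, which lie nearest the centre, range from -1.59 to -0.44.

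Genes that act before and after the immune proteasome did not share its direction as a group. The list of interferon-gamma signalling had a median log2 ratio of 0.16. Of its 10 genes with at least 100 counts, 7 were wholly above 0 and 0 wholly below, against 37.0% and 46.7% of all genes tested. Irf1, a transcription factor that acts on Psmb9 and Tap1, stood at 25.6 against 23.9 CPM (0.10, 0.02 to 0.18). Irf2 (0.77) was the highest gene with enough counts. Interferon-gamma itself, Ifng, was at 28 against 7 counts. Among the 12 MHC class I processing genes the median was 0.04, with 6 wholly above 0 and 5 wholly below. Nlrc5, the activator of class I genes, was at 4.62 against 2.67 CPM (0.79, 0.58 to 1.01), while B2m was at 0.08, H2-K1 at 0.03 and Erap1, a peptide trimming enzyme, at -0.41. Tap2 was the one gene of the 12 past the 2-fold minimum. Immune subunits are expressed in most blood cells, and marker lists moved in both directions. By 2-fold, 9 of 15 myeloid genes were called higher and 0 lower, against 11.2% and 5.36% of all genes tested. Of erythroid genes 4 of 11 and of NK cell genes 5 of 8 were higher, and Thy1 was called lower among 12 T cell genes. Of 8 stroma and endothelium genes, 3 were higher by 2-fold, with Cxcl12 highest (2.92), and 1 was lower, Pdgfrb (-1.48). Of 8 B cell genes, 2 were lower by 2-fold (Spib at -3.01 and Pax5 at -2.04) and 0 higher, with a sum of 7.93 against 11.6 CPM. Of 8 dendritic cell genes, 1 was higher by 2-fold and 0 lower. By 1.5-fold 3 of them were lower (Xcr1, Bst2 and Flt3, at -0.91, -0.85 and -0.77) and 2 higher, against 14.7% and 18.9% of all genes tested. The dendritic cell list summed to 2552 against 3465 counts. The part of these cells in the immune subunit values was not tested.

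Both subunits with a tissue-bound form were scarce. Psma8 (chromosome 18, 14706151 to 14762301, plus strand), the germ cell relative of Psma7, had 80 against 820 counts. This was 0.75 against 7.59 CPM, a log2 ratio of -3.33, and knockout stood at 9.96% of wild-type (7.77% to 12.5%). Only 0.390% of all genes tested had a lower ratio. Per length, Psma8 was at 3.04 RPKM in the wild-type pool, where Psma7 was at 83.0 RPKM. Its neighbours with at least 100 counts, Ss18 (-0.24) and Taf4b (0.05), had ratios far from that of Psma8. A U1 gene nearby had 35 against 58 counts (-0.70, -1.36 to -0.08). Of 8 germ cell genes, 3 had at least 100 counts: Stra8 was called lower (223 against 553 counts, -1.29), Sycp3 was at -0.35 and Ddx4 at -0.31, while Mael and Tdrd1 had 0 counts in either pool. A pooled count does not show whether the 820 counts came from 1 tumour or from several. Psmb11, the active site subunit of cortical thymic epithelium, had 22 against 18 counts, too few for a call (0.30, -0.66 to 1.29). Foxn1, the factor that defines thymic epithelium, had 0 and 2 counts, and Krt8 had 2 and 0. The whole list of 8 summed to 29.5 against 37.6 CPM, most of it Ly75 (20.7 against 28.3 CPM), with Epcam (-1.88) and Ccl25 (-1.06) called lower and Cd83 (2.14) called higher.

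The 19S particle, taken here as its 17 genes named Psm, lay close to the median of all genes. Of these genes, 15 were below 0 by totals and 9 to 15 under the other scalings. Shfm1 and Adrm1 are given with the proteasome-associated genes below and are not among the 17. By totals, 7642 of the 13833 genes tested were below 0, and 2946 of the 4540 genes in the level range of the core genes. The median log2 ratio of the 17 genes was -0.10, above the -0.14 of those 4540 genes, and the range of -0.28 to 0.15 was narrow. Summed over the 17 genes, the knockout pool held 2807 CPM and the wild-type pool 3027 CPM. In the ATPase ring of the base, 5 of 6 genes were below 0 by at most 0.17: Psmc4 (137 against 154 CPM, -0.17), Psmc6 (158 against 170 CPM, -0.11), Psmc1 (-0.09), Psmc3 (-0.05) and Psmc5 (-0.05), of which the last 2 were above 0 under TMM scaling. Psmc2 was the exception, with 13377 against 12270 counts (0.15, 0.11 to 0.18). Its direction was the same under every scaling tried.

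The large scaffold proteins of the base, Psmd1 and Psmd2, stood at 396 against 424 CPM (-0.10) and at 171 against 173 CPM (-0.01, -0.04 to 0.02). The ubiquitin receptor Psmd4 was at 155 against 174 CPM (-0.16). Psmd1 had the highest CPM of all proteasome genes in both pools, over 7265 bases of exons.

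In the lid, which removes ubiquitin chains, 7 of the 8 genes named Psm had intervals below 0, against 46.7% of all genes tested. The median of these 8 was -0.14. Shfm1, a lid subunit not named Psm, was lower than all of them (-0.56). Of the 8, Psmd3 was lowest at 176 against 214 CPM (-0.28, -0.31 to -0.25), followed by Psmd8 at 255 against 299 CPM (-0.23, -0.25 to -0.21). Psmd13 (-0.17), Psmd12 (-0.15), Psmd11 (-0.14), Psmd7 (-0.07) and Psmd14, the deubiquitinating enzyme itself (149 against 153 CPM, -0.04), followed, and Psmd7 and Psmd14 were above 0 under TMM scaling. Psmd6 was at 65.4 against 65.2 CPM, and its interval of -0.04 to 0.05 held 0. The core and the 19S particle thus had medians of -0.27 and -0.10; with 1 pool per genotype, this difference has no test.

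The assembly chaperones, which build the particles and leave them, were divided, with ratios from -0.89 to 0.17. For the core, Psmg1 and Psmg2 form a heterodimer that sets up the alpha ring, and Psmg3 and Psmg4 form another. The former pair stood at 23.3 against 22.6 CPM (0.05, -0.03 to 0.13) and at 23.5 against 20.8 CPM (0.17, 0.09 to 0.26). The latter pair was lower. Psmg4 (chromosome 13, 34162964 to 34178173) had 1968 against 3713 counts, or 18.5 against 34.4 CPM (-0.89, -0.97 to -0.82). Psmg3 (chromosome 5, 139823592 to 139826885) had 2485 against 3783 counts (-0.59, -0.66 to -0.51). This value sits at the 1.5-fold minimum, and its call ended under TMM scaling, where the ratio was -0.50. Both partners of the Psmg3 and Psmg4 dimer thus lay below the partners of the other. Around Psmg4 the direction was not shared: Slc22a23, 985 bases away, was at 0.21 and Tubb2b at 2.00. Around Psmg3, Ints1 (-0.57) and Mafk (-0.62) were lower and Tmem184a (0.81) higher.

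The chaperones of the 19S base showed little. Psmd5 was at 43.3 against 42.3 CPM (0.03, -0.03 to 0.09) and Psmd9 at 69.7 against 79.3 CPM (-0.19). Psmd10, known as gankyrin, was at 50.5 against 47.2 CPM (0.10, 0.04 to 0.15). Psmd10 is the X-linked member, and the wild-type label allows female donors, so genotype and sex cannot be told apart for it. Pomp, the maturation factor of the core and not named Psm, was at 116 against 129 CPM (-0.15).

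Among the other caps, the interferon-inducible activator genes differed from each other. Psme1 (PA28 alpha) had 18618 against 19004 counts (-0.01, -0.04 to 0.02). Psme2 (PA28 beta), its partner in the same ring, had 2070 against 2681 counts and was lower at -0.35 (-0.44 to -0.27). Relative to Psme3 (PA28 gamma), the nuclear form, the difference was 0.03 (-0.01 to 0.06) for Psme1 and -0.32 (-0.40 to -0.23) for Psme2. Psme2 shares 794 bases at 99.4% identity with Psme2b, listed as Psme2b-ps, which went the other way at 228 against 134 counts (0.79, 0.47 to 1.11). The value of Psme2 is therefore uncertain. Psme3 stood at 319 against 327 CPM (-0.04), Psme4 (PA200) at 114 against 112 CPM (0.03) and the regulator Psmf1 (PI31) at 90.1 against 95.8 CPM (-0.09). Under TMM scaling Psme1 and Psme3 lay above 0.

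**Figure D4:**
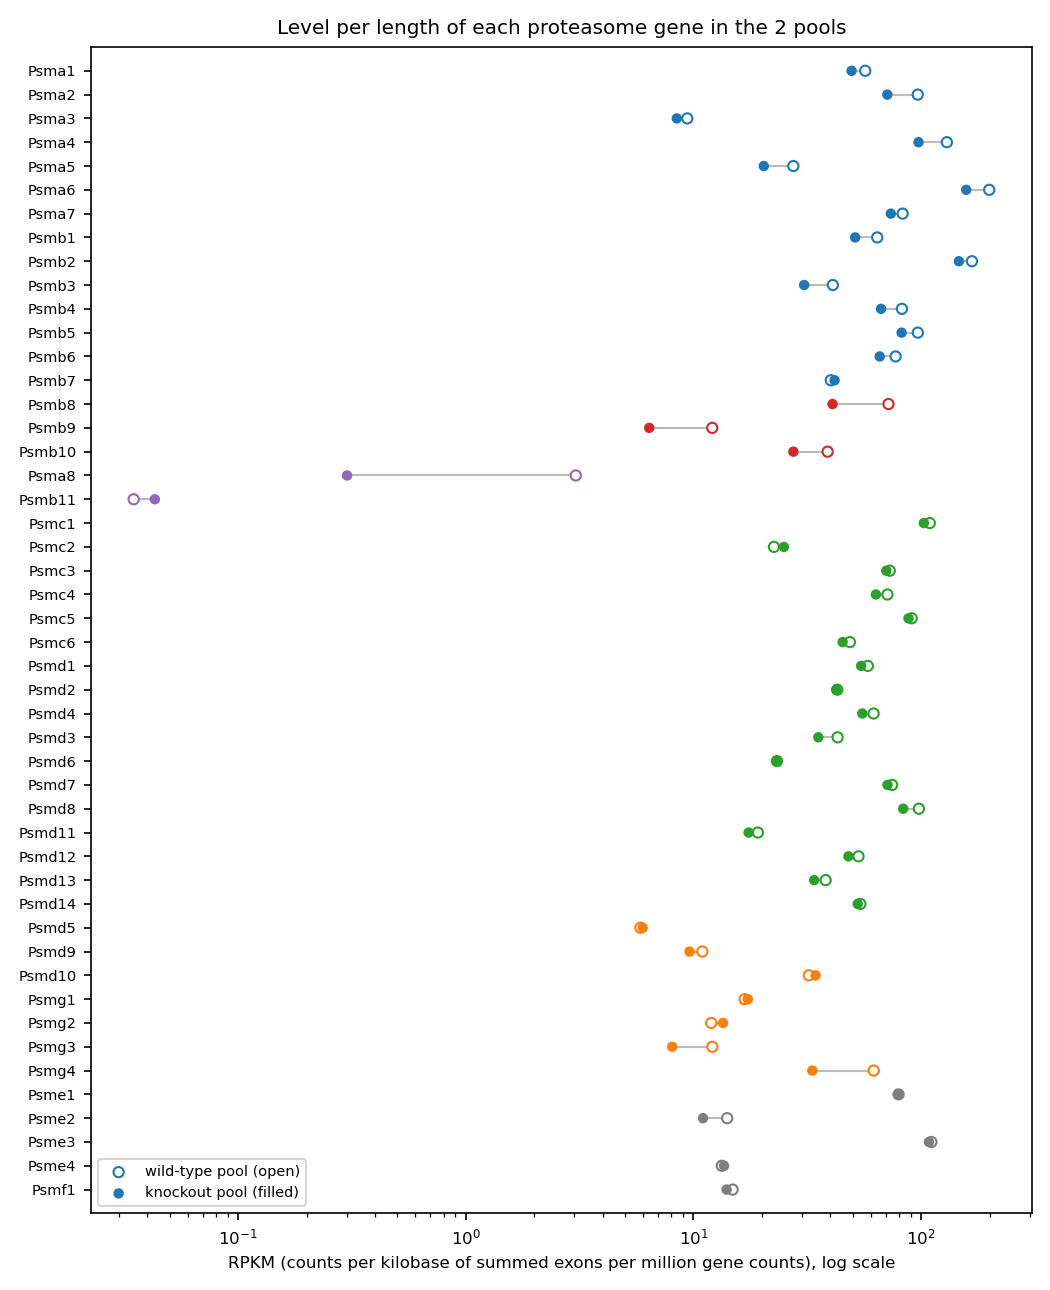
Level per length (RPKM, x axis, log scale) of each of the 48 proteasome genes (y axis) in the wild-type pool (open) and the knockout pool (filled), coloured by particle as in the plot of ratios. Core genes lie between 8.46 RPKM (Psma3, knockout) and 199 RPKM (Psma6, wild-type), and Psma8 and Psmb11 lie far to the left.

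Subunits that stand in equal numbers in the particle did not have equal RNA levels. Per length, the core genes ranged from 9.40 RPKM (Psma3) to 199 RPKM (Psma6) in the wild-type pool and from 8.46 to 158 RPKM in the knockout pool, with the same genes at the ends. Near-identical copies elsewhere in the genome can take reads of a gene or leave them unassigned; their part in this spread was not tested. Psma3 has 4 annotated copies of at least 95% identity over 200 bases, Psmb3 has 3 and Psma5 has 2. These were 3 of the 4 lowest core genes of the wild-type pool (9.40, 41.0 and 27.5 RPKM). Psma4 and Psmb5, with 1 copy each, stood higher in that pool, at 130 and 96.8 RPKM. With the longest protein-coding transcript as length, Psmb3 was at 123 RPKM in the wild-type pool. Without the core genes that have such copies, 9 remained and ranged from 40.1 RPKM (Psmb7) to 199 RPKM in the wild-type pool. The 17 genes of the 19S particle ranged from 19.2 RPKM (Psmd11, with 2 copies) to 109 RPKM (Psmc1, with 1 copy), and the assembly chaperones from 5.85 RPKM (Psmd5) to 61.9 RPKM (Psmg4) in the wild-type pool. Summed exons of all annotated transcripts were used as length, which understates genes with rare long transcripts, so the order of single genes is approximate.

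Among the 13 proteasome-associated genes the median was -0.06. Of these, 6 were wholly below 0 and 3 wholly above, against 46.7% and 37.0% of all genes tested. The share of the list below 0 was thus near that of all genes. List genes below 0 included partners of the 19S particle. Shfm1, the smallest lid subunit, stood at 158 against 232 CPM (-0.56, -0.58 to -0.53) and Uchl5, a deubiquitinating enzyme, at 126 against 168 CPM (-0.41). Its docking protein and ubiquitin receptor Adrm1 was at 36.8 against 42.2 CPM (-0.20), and the other deubiquitinating enzyme, Usp14, at 8197 against 8364 counts (-0.01). The stress-induced proteasome binders Zfand2a (0.86, 29.3 against 16.1 CPM) and Zfand5 (0.84, 102 against 57.0 CPM) were the highest and passed the 1.5-fold minimum.

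The transcription factor Nfe2l1, which raises proteasome gene expression when proteolysis is short, stood at 50.8 CPM in the knockout pool against 45.0 CPM (0.17, 0.12 to 0.23). Of the enzymes that release and activate it, the protease Ddi2 was at 55.2 against 80.9 CPM (-0.55) and the glycanase Ngly1 at 20.3 against 26.9 CPM (-0.41). The median of this list of 13 was -0.23. Ogt, an X-linked gene whose glycosyltransferase acts on many proteins, was the one called gene (1.43, 87.0 against 32.2 CPM). Mafk, a partner of Nfe2l1 on DNA, was lowest (-0.62). The other Maf genes of the list did not share this direction. Mafg was higher (0.65, 0.58 to 0.71), and the interval of Maff held 0 (0.09, -0.20 to 0.38). Of the 14 shuttle and p97 genes, 10 were wholly below 0, against 46.7% of all genes tested, with a median of -0.14. The 4540 genes in the level range of the core genes also had a median of -0.14, and 2756 of them were wholly below 0. Vcp, the p97 unfoldase, was at 196 against 245 CPM (-0.33) and its cofactor gene Nploc4 at 102 against 136 CPM (-0.41). Of the 10 ubiquitin and E1 genes, Ubb was at 487 against 685 CPM (-0.49), while Uba7, the E1 of the interferon-induced modifier Isg15, was called higher (1.18, 17.8 against 7.87 CPM).

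**Figure D5:**
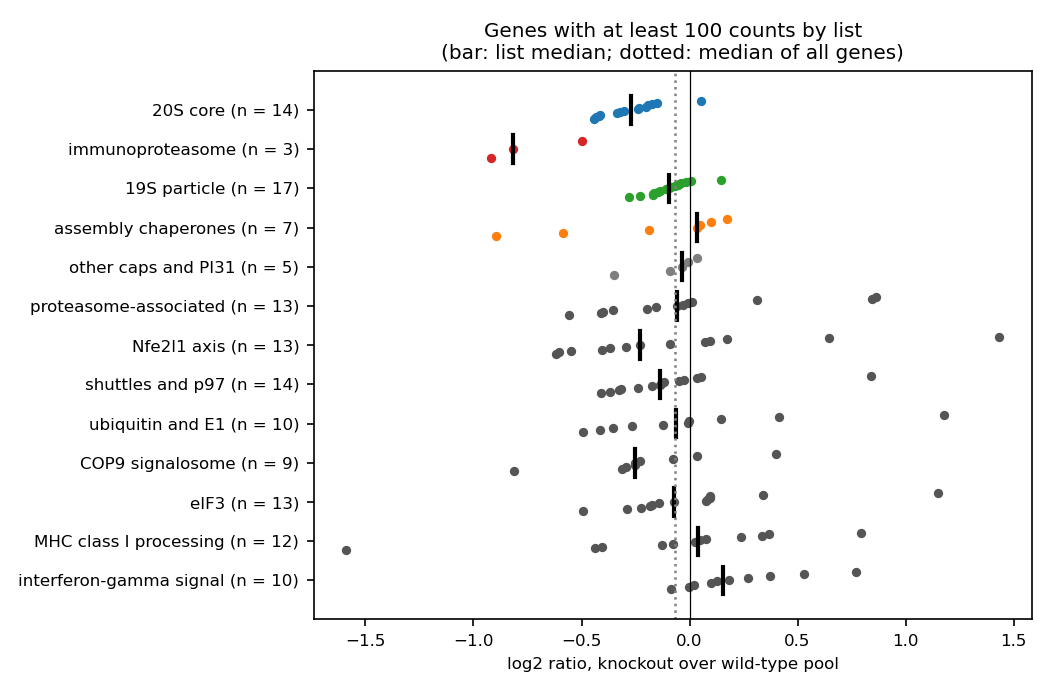
Log2 ratio of the knockout over the wild-type pool (x axis) for each gene with at least 100 counts, by particle or list (y axis); black bars are list medians and the dotted line is the median of all genes. The immunoproteasome median of -0.82 lies furthest to the left, and the core and COP9 signalosome medians lie at -0.27 and -0.25.

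Related complexes set the scale for these small differences. The COP9 signalosome, which shares its architecture with the 19S lid, had a median of -0.25 over 9 genes, and eIF3, built on the same plan, had -0.07 over 13. The 81 cytosolic ribosomal protein genes with at least 100 counts had a median of -0.26. The core median of -0.27 was thus close to those of the COP9 signalosome and the ribosome. The immunoproteasome median of -0.82 lay below each of them. Another scaling shifts all these medians alike and leaves their differences as they are. No test of these differences is possible with 1 pool per genotype.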

How the data were processed

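Poly(A) RNA libraries made by the dUTP method gave single 50-base reads, per the labels' protocols. The submitters' processing notes name CASAVA, TopHat and mm9, without versions. The authors compared genotypes with DEGseq, per the series' design text. Annotation, counting tool and strand: not given in the sources used here.

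Whole read counts fill the deposited table, which the authors pooled by genotype, per the file headers and values; which libraries entered is unstated. Value 1 was taken as the knockout pool from the table's title and checked against Kdm6a. Its log2 fold changes, z score and p-values and q-values are the authors' deposited values. Of these, the q-values were used for 1 count and 1 alternative, and that alternative also used the normalized log2 fold changes. The number of other per-sample columns was 0.

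Ratios, exact intervals and RPKM were computed with Python 3.11.15 and scipy 1.17.1. They were tested on simulated data. Scaling alternatives came from edgeR 4.0.16 (TMM, upper quartile) and DESeq2 1.42.0 (median of ratios). Intervals cover counting error only. A count of 0 would allow 3 counts, 0.0282 CPM (knockout) or 0.0278 CPM (wild-type). Identifiers of all 53 matched rows are in GENCODE M21 (GRCm38), whose coordinates and exon lengths are used; mm9 coordinates are not. Copies were found with BLAST 2.17.0. Of 184 genes on 17 other lists 183 matched. Named genes: all members, called or extreme list genes, and a set of fixed names; other names were chosen after their values were seen, among them Cd3e, Lck, B2m, H2-K1, Erap1, Ngly1, Ddi2, Vcp, Ifng, Mael, Tdrd1, Foxn1, Krt8, Flt3 and all neighbours outside the lists. Members and lists were chosen with earlier results of these data known. Some named genes of the lists are not reported here.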

Additional observations from a re-analysis of the deposited data

How the results depend on the processing

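Under TMM, median of ratios, and a depth without mitochondrial and erythroid genes, all log2 ratios shifted up by 0.08, 0.07 and 0.09; the median of all genes, -0.07 by column totals, was then 0.01, -0.0004 and 0.02. In that order, the core median was -0.19, -0.20 and -0.18, the immunoproteasome median -0.74, -0.75 and -0.73, that of the 19S particle -0.017, -0.029 and -0.0055, and that of the other caps 0.044, 0.031 and 0.055. The assembly chaperone median was 0.11 with TMM and 0.13 without mitochondrial and erythroid genes. The mean in place of the median gave -0.75 for the immunoproteasome, -0.19 for the assembly chaperones and -0.090 for the other caps, so the sign of the last 2 is not fixed. Core genes without near-identical copies had a median of -0.23. Sign changes of single genes numbered 7, 6 and 9 of 48 under the 3 scalings. They included Psmc3, Psmc5, Psmd2, Psmd7, Psmd14, Psme1 and Psme3 under TMM. Of 14 core genes 13, and of 3 immune subunits 3, stayed below 0 under every scaling run. Genes lower by 1.5-fold numbered 4 in place of 5 under these 3 scalings and with a pseudocount of 5. Pair differences kept their side of 0 with a pseudocount of 5 and with counts divided by 10. The immune share per transcript length was added after seeing the data. No paired analysis was possible because the table holds 1 pooled value per genotype, so no sample could be left out either.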
